A study of Homo sapiens with 4 samples.

Results

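The hexamers described here are 5 GRE half-sites whose cytosines were highly methylated on both strands in DNA immunoprecipitated with the glucocorticoid receptor (GR). A GRE half-site is the sequence AGAACA, which reads TGTTCT on the opposite strand. Each strand of it carries 1 cytosine. The hexamers lay nearest to FN1, ALS2CR17, MAP3K13, BAIAP2L1 and BNIP2. These genes were chosen by their measured methylation levels, since both cytosines of the hexamer reached 50% or above in the GR library. The levels of the hexamers are therefore given as a description, without a test. All distinct cytosines that the deposited tables assign to the 5 genes were taken, which gave 12 of 15177 cytosines in the 6 tables. Of these, 10 form the 5 hexamers, 1 is a further TGTTCT cytosine of BAIAP2L1 in the GR library, and 1 is an AGAACA cytosine of FN1 in the IgG control. No CACGTG cytosine was assigned to any of the 5 symbols, although NBEAL1, the newer symbol of ALS2CR17, had 1 in the BMAL1-CLOCK library, given with the neighbouring cytosines.

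BisChIP-seq is bisulfite sequencing of immunoprecipitated chromatin, in which a methylated cytosine is read as C and an unmethylated cytosine is converted. An unmethylated cytosine that escapes conversion is read as C too, and the paper gives no conversion rate. A methylated read here therefore means a read with C. HEK-293T cells, a human embryonic kidney line, were co-transfected with the vectors GR-pCMV14 and DNMT3A-pLX304 and treated with 4 nM dexamethasone, a synthetic ligand that moves GR into the nucleus, for 24 h. An anti-Flag library and an IgG control library were made from these cells. The other 2 libraries, again anti-Flag and IgG, came from cells with BMAL1-pCMV14, CLOCK-pCMV14 and DNMT3A-pLX304 and without dexamethasone. All 4 libraries thus come from cells of 1 line that overexpress DNMT3A, each group is 1 library, and no value has a replicate error.

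GR is a nuclear receptor that binds DNA through zinc fingers, and each receptor monomer contacts 1 half-site of a GRE. DNMT3A is a de novo DNA methyltransferase that methylates CpG and, less efficiently, cytosines followed by another base. A CpG is symmetric, so that the maintenance methyltransferase DNMT1 can copy its methylation to the new strand after replication. The cytosines of a GRE half-site precede A or T, and the cytosine on one strand has no cytosine directly opposite in the same dinucleotide. Bisulfite sequencing reads each strand separately, so the levels of the 2 strands of a half-site are 2 separate measurements, made on different reads. Whether both strands of 1 DNA molecule were methylated was not measured.

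The measured cytosine is the fifth base of each reading of the hexamer, shown here as the capital letter, because the report turns on this pair of bases.

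Half-site strand: agaaCa

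Complementary strand: tgttCt

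On the genome the 2 cytosines stand 3 bases apart on opposite strands. In hg18 the hexamers were chr2:215934302-215934307 nearest FN1, chr2:203763941-203763946 nearest ALS2CR17, chr3:186618883-186618888 nearest MAP3K13, chr7:97853422-97853427 nearest BAIAP2L1 and chr15:57848252-57848257 nearest BNIP2. AGAACA was on the plus strand at the first 4 and on the minus strand at BNIP2. Sequence around the hexamers and their place in exons or introns were not analysed here.

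The GR library listed 1149 distinct AGAACA cytosines with 10973 reads and 6958 TGTTCT cytosines with 40545 reads. Its IgG control listed 2100 with 10129 reads and 615 with 4014 reads. The BMAL1-CLOCK library listed 4353 CACGTG cytosines with 21042 reads and its IgG control 2 cytosines with 164 reads. The median was 4 reads per cytosine, the minimum the authors kept, in all tables except the last. Of the listed cytosines of the GR library, 1.22% of AGAACA and 1.55% of TGTTCT had a level of 50% or above. These are the background shares for single strands. In the IgG control the shares were 2.19 and 2.11%.

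Over the 5 hexamers, 209 of 212 reads were methylated (98.6%, exact 95% binomial interval 95.9 to 99.7%). All 10 cytosines had a level above 80%, of which 7 were methylated in every read and the other 3 had 1 unmethylated read each. On the AGAACA strand 104 of 105 reads were methylated (99.0%, interval 94.8 to 99.98%), and on the TGTTCT strand 105 of 107 were (98.1%, interval 93.4 to 99.8%). The intervals of the strands overlapped over most of their width. The choice of hexamers required a high level on both strands, so this overlap does not test whether the strands are alike. Intervals cover counting error only.

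FN1 encodes fibronectin, a glycoprotein of the extracellular matrix that cells bind through integrins. At its hexamer the AGAACA cytosine was methylated in 75 of 76 reads (98.7%, interval 92.9 to 99.97%) and the TGTTCT cytosine in 67 of 67 reads (100%, interval 94.6 to 100%). With 143 reads this hexamer supplied 67.5% of the reads of all 5, so its levels are the most precise. Without it the pooled level was 67 of 69 reads (97.1%, interval 89.9 to 99.65%).

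MAP3K13 is a kinase that acts upstream of JNK. Its hexamer was methylated in 9 of 9 reads on the AGAACA strand (interval 66.4 to 100%) and in 13 of 13 on the TGTTCT strand (interval 75.3 to 100%). ALS2CR17 is an older name of NBEAL1, a protein of the BEACH domain family. Here 10 of 10 AGAACA reads (interval 69.2 to 100%) and 9 of 9 TGTTCT reads (interval 66.4 to 100%) were methylated. At these genes no unmethylated read was seen, and the lower limits lay between 66.4 and 75.3%.

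BAIAP2L1 encodes an I-BAR protein that links membranes to actin. The AGAACA cytosine of its hexamer was methylated in 5 of 5 reads (interval 47.8 to 100%) and the TGTTCT cytosine in 5 of 6 reads (83.3%, interval 35.9 to 99.6%). BNIP2 encodes a scaffold protein with a BCH domain. Its AGAACA cytosine was methylated in 5 of 5 reads (interval 47.8 to 100%) and its TGTTCT cytosine in 11 of 12 reads (91.7%, interval 61.5 to 99.8%). At BAIAP2L1, and on the AGAACA strand of BNIP2, the depth does not separate a complete level from one just below 50%.

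**Figure D1:**
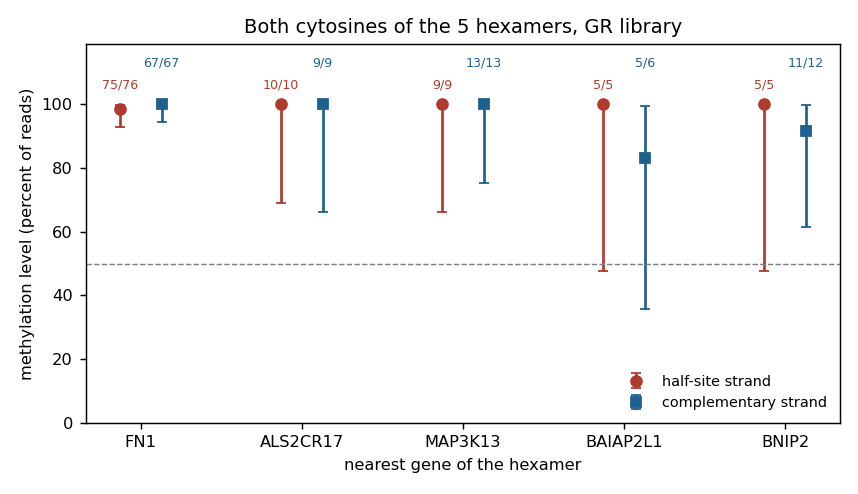
Methylation level (percent of reads) of both cytosines of the 5 hexamers in the GR library, by nearest gene. Circles are the AGAACA strand, squares the TGTTCT strand, bars are exact 95% binomial intervals, the numbers above are methylated and all reads, and the dashed line marks 50%. All 10 points lie above 80%, and the bars of FN1, with 76 and 67 reads, are the shortest.

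Cytosines 3 bases apart on opposite strands, in the order that the hexamer requires, were listed for 20 hexamers of the GR library and for 28 of its IgG control. No pair with the opposite order was found in either. Of the 20 hexamers of the GR library, 5 were at 50% or above on both strands (25%, interval 8.66 to 49.1%), and these are the hexamers chosen. None was at 50% or above on 1 strand alone. The hexamers of the GR library therefore fell apart into 5 with levels from 83.3 to 100% on both strands and 15 with levels of 35.1% or below. The lowest level among the chosen cytosines was the 83.3% at BAIAP2L1. Just outside the choice was a mitochondrial hexamer assigned to BC018860, with 27 of 77 TGTTCT reads (35.1%) and 1 of 84 AGAACA reads (1.19%) methylated. The next highest of the 30 cytosines had a level of 9.92%.

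In the IgG control, 0 of the 28 hexamers were at 50% or above on both strands (0%, interval 0 to 12.3%). None was so on 1 strand, and the highest level of a cytosine was 28.6%. Pooled over all 28 hexamers of the control, 152 of 2622 reads were methylated (5.80%). At the 15 other hexamers of the GR library 112 of 11857 were (0.945%). The choice took the 5 highly methylated hexamers out of the GR pool only, so the 2 shares are not a like comparison. The hexamer of NR3C1 supplied 56.7% of the reads of these 15, and without it 96 of 5140 reads were methylated (1.87%). Both libraries listed both strands for 10 of these 15 hexamers and for none of the 5 chosen ones. No cytosine of the 5 hexamers was listed in the IgG control, so the control gives no level at these positions and GR could not be compared with it there. An unlisted cytosine may have had 1 to 3 reads or none.

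**Figure D2:**
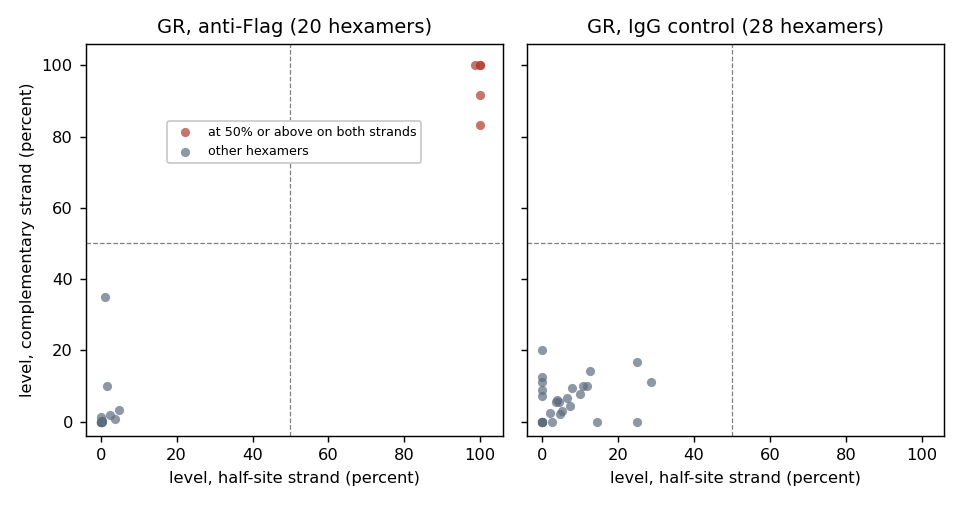
Level on the TGTTCT strand (complementary strand, percent) against level on the AGAACA strand (half-site strand, percent) for each hexamer with both cytosines listed, in the GR library (left, 20 hexamers) and its IgG control (right, 28). Each point is 1 hexamer and dashed lines mark 50%. In the GR library 5 hexamers lie at the upper right and 15 at 35.1% or below on both axes, and no hexamer of the control exceeds 28.6% on either axis.

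All 5 hexamers were written in capitals in the tables, which in hg18 marks sequence outside repeats, on chromosomes 2, 3, 7 and 15. Of the other 15, 6 lay in repeats and 5 were mitochondrial, and the remaining 4 were nearest NR3C1, PDE4DIP, DQ590589 and AL832161, the last 2 on unplaced sequence. At PDE4DIP, DQ590589 and AL832161 no read was methylated. The hexamer of NR3C1, the gene of GR, had 9 of 3324 AGAACA and 7 of 3393 TGTTCT reads methylated (0.271 and 0.206%). The cells also carried a GR vector, and reads of the vector and of the chromosome cannot be told apart at this hexamer.

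The rows of the TGTTCT table of the GR library ran through the chromosomes in 2 lists without a common site, of 6045 and 913 cytosines. The same division was present in the IgG control, where all 37 TGTTCT cytosines shared with the longer list stood in 1 list and all 15 shared with the shorter list in the other. No source used here states what separates the lists. The 5 TGTTCT cytosines of the chosen hexamers all stood in the shorter list, which held 9 of the 20 hexamers, and none of the 11 hexamers of the longer list was highly methylated. High levels on the TGTTCT strand were not confined to the shorter list. Over all TGTTCT cytosines of the GR library, 78 of 6045 in the longer list and 30 of 913 in the shorter list were at 50% or above. The share was thus higher in the shorter list, and the 1.55% over both lists is not the background of that list alone. The AGAACA table of the GR library corresponded to 1 of 2 lists of the control, since all 25 shared cytosines stood in a list of 509 there and none in the list of 1591. Limited to that list, the control had 0 of 12 hexamers at 50% or above on both strands. Of these 12, 4 also had their TGTTCT cytosine in the list of the control that matched the shorter list. Only these 4 match the lists of the chosen hexamers on both strands, so the control holds few hexamers of their kind. The AGAACA cytosines listed for the GR library formed 1 list only, so that the 20 hexamers cover only a part of those the library may hold.

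A level on 1 strand could be set against the other strand in few cases. Of the 14 AGAACA cytosines of the GR library at 50% or above, the TGTTCT cytosine of the same hexamer was listed for 5, and of the 108 such TGTTCT cytosines the AGAACA cytosine was listed for 5. In these cases the other strand was highly methylated as well, which is what chose the genes. For the other 9 and 103 cytosines the second strand was not listed, and whether it was methylated is not known from the tables.

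Reads per strand were not used in the choice. The 5 hexamers had 143 reads at FN1, 22 at MAP3K13, 19 at ALS2CR17, 17 at BNIP2 and 11 at BAIAP2L1, with a median of 19. The 15 other hexamers had a median of 116 reads, ranging from 9 to 6717, and 7 of them had more reads than the FN1 hexamer. Thus 4 of the 5 chosen hexamers lay below the median of the others, and that of FN1 above it. Each of the 10 cytosines had at least 5 reads, whereas 81.5% of AGAACA and 79.2% of TGTTCT cytosines in the GR tables had exactly 4. This was not particular to the 5. Of the 15 other hexamers, only those of PDE4DIP and AL832161 had a cytosine with 4 reads. A hexamer enters these counts only if both strands have at least 4 reads, which favours deep sites in both sets.

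At the 5 hexamers, reads on the TGTTCT strand were 0.882 times those on the AGAACA strand at FN1, 0.900 times at ALS2CR17, 1.20 times at BAIAP2L1, 1.44 times at MAP3K13 and 2.40 times at BNIP2. None of the 5 differed from equal reads on the strands (exact binomial test, two-sided, Benjamini-Hochberg adjusted p from 0.287 at BNIP2 to 1.00). Of all 20 hexamers of the GR library 8 did (40%), as did 9 of 28 in the IgG control (32.1%). In the GR library the ratios of these 8 hexamers ran from 0.184 to 10.03, and 4 of them were mitochondrial. With 11 to 22 reads at 4 of the 5 hexamers, only a strong imbalance could have passed this test.

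**Figure D3:**
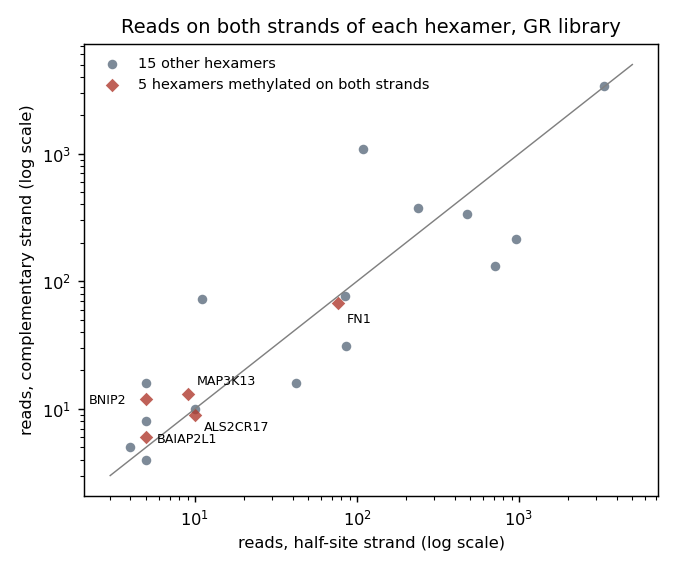
Reads on the TGTTCT strand (complementary strand) against reads on the AGAACA strand (half-site strand), both on log scales, for the 20 hexamers of the GR library. Diamonds are the 5 hexamers methylated on both strands, circles the 15 others, and the line marks equal reads. The ratios of the diamonds run from 0.882 to 2.40 and those of the circles from 0.184 to 10.03, with circles on the line as well as far from it.

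The distances to the TSS in the tables are unsigned, but the distances of the 2 cytosines of a hexamer fix its side. Together with the strand of each gene in RefSeq, this placed the hexamer 16924 bp downstream of a TSS of FN1, 55224 bp downstream of MAP3K13 and 14890 bp downstream of BAIAP2L1, measured at the AGAACA cytosine. The hexamer lay 17659 bp upstream of the TSS named ALS2CR17 and 79319 bp upstream of that of BNIP2. None of the 5 was thus within 5 kb of a TSS, and 3 lay downstream of the TSS used. The tables also hold a TSS named NBEAL1, and its unsigned distance from a CACGTG cytosine leaves 2 possible positions, 86.3 and 55.2 kb before the hexamer of ALS2CR17. The hexamer was therefore downstream of that TSS of the same gene. AGAACA was on the same strand as the gene at ALS2CR17, MAP3K13 and BNIP2 and on the opposite strand at FN1 and BAIAP2L1. The nearest gene is an assignment by distance, and expression of these genes was not measured.

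For each hexamer the nearest other cytosine of each library and motif was taken. Only 2 of these lay within 100 kb, and neither had a methylated read. At BAIAP2L1 a TGTTCT cytosine at position 97875989 of chromosome 7, in a repeat, lay 7673 bp upstream of the same TSS and 22563 bp from the methylated hexamer, where none of 4 reads was methylated and the limit of a count of 0 is 75%. At FN1 the IgG control listed an AGAACA cytosine at position 216067532 of chromosome 2, 133 kb from the hexamer, also with 0 of 4 reads methylated. For MAP3K13 and BNIP2, and under the symbol ALS2CR17, no further cytosine was listed in any table. Leaving out the BAIAP2L1 hexamer, the nearest other cytosine of the GR library was 137 kb away. Over all 5 hexamers the nearest of the IgG control was 133 kb away. The nearest CACGTG cytosine was 70.8 kb from the hexamer of ALS2CR17 and assigned to the same gene under its newer symbol NBEAL1, with 0 of 4 reads methylated. A full GRE holds a second half-site in inverted order after a spacer of 3 bases. No cytosine of such a second half-site was listed at any of the 5 hexamers.

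Related genes were taken from a list of 51, made with earlier results of these data known. The list held NBEAL1, which is ALS2CR17 itself and was left out of the counts, and 19 of the other 50 genes had 31 cytosines in the tables. In the GR library 14 of them had 21 cytosines, and none of their 88 reads was methylated (limit 3.41%). Among 14 extracellular matrix and integrin genes, 5 had 11 cytosines in this library, at LAMC1, a laminin chain, ITGAV and ITGB1, integrin subunits, FBN2, a fibrillin, and COL1A2, a collagen chain, with 0 of 46 reads methylated. Among 15 genes of the JNK pathway, 7 had 8 cytosines with 0 of 33 reads methylated, including JUN, the transcription factor that JNK phosphorylates, and the kinases MAPK9, MAPK10 and MAP2K4. BNIP1 (0 of 4 reads) and ALS2CR8 (0 of 5 reads) had 1 cytosine each, and none of 4 I-BAR genes listed beside BAIAP2L1 had any. In the IgG control 3 cytosines of these genes, at MAPK10, MAP3K4 and ALS2CR16, carried no methylated read among 12 (limit 25%). The ALS2CR16 cytosine, with 0 of 4 reads methylated, lay 146 kb from the hexamer of ALS2CR17. Whether ALS2CR16 is a further symbol of the same gene was not checked. In the BMAL1-CLOCK library 7 CACGTG cytosines of 7 genes carried none among 31 (limit 9.68%). Since 1.22 and 1.55% of all cytosines of the GR library were highly methylated, a count of 0 among 21 is near the background and is no result about these genes.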

How the data were processed

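BisChIP-seq reads of 4 HEK-293T libraries were processed by the authors, who merged 2 sequencing runs per library, aligned them to hg18 with Bismark, counted overlapping read pairs once, removed duplicates with SAMtools and kept motif cytosines with at least 4 reads. No source used here gives the tool versions. For each cytosine the 6 deposited tables hold its methylated and its total read count, without normalization. Rows repeating a site (identical counts) were used once. Each hexamer of the 5 genes stood in the AGAACA table of the GR library 2 or 4 times. AGAACA and TGTTCT cytosines on opposite strands were paired at a spacing of 3 bases. Lower-case letters in the sequence column were read as repeats. Levels are percent of methylated reads with exact Clopper-Pearson 95% intervals, and a count of 0 allows 3 counts of the total. Reads on the strands were compared by an exact binomial test with Benjamini-Hochberg adjustment over the hexamers of a library (threshold 0.05). It was checked on simulated data. The Fisher exact test planned between GR and IgG could not be run, because 0 cytosines of the 5 genes were read in both libraries. Gene strands and the symbol NBEAL1 come from RefSeq (GRCh38.p14), where all 5 genes matched, and no coordinates of that build were used. Alternatives changed the level, the minimum reads, the distance, the sequences kept and the pairing, and 2 on the lists of rows were added after seeing the data. All sites of the 5 genes, the hexamers near the threshold and the related genes are named. The members and lists were chosen with earlier results of these data known. Python 3.11.15, pandas 2.3.3, scipy 1.17.1 and matplotlib 3.10.9 were used.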

Additional observations from a re-analysis of the deposited data

How the results depend on the processing

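The counts of hexamers depended on the minimum of reads. With at least 8 reads on both strands, 3 of the 5 hexamers were left, those of FN1, ALS2CR17 and MAP3K13, and with at least 10 reads 1 was left, that of FN1. These were also the counts over the whole GR library, of 14 and 12 hexamers at those depths, and they follow from the fewer reads at the other hexamers. Without mitochondrial and unplaced sequence, 3 of 12 hexamers of the GR library had unequal reads on their strands, in place of 8 of 20. The other 22 of 27 alternatives left the value within 1.5 times the count, within its interval, or at 0. The count of hexamers methylated on both strands was 5 at levels of 25 and 75%, within 100 kb of a TSS, without mitochondrial and unplaced sequence, with either order of the cytosines and in the shorter TGTTCT list alone. No cytosine of the 20 hexamers of the GR library had a level between 35.1 and 83.3%, so the level of 75% had to give the same 5. In the IgG control the count was 0 under all 7 alternatives run there. Only the level of 25% could have raised it, because the others only remove hexamers or raise the threshold. No paired analysis was possible because each group is 1 library. The precision is limited by 5 to 13 reads per cytosine outside FN1, and the depth of the libraries outside the listed cytosines is not known from the tables.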

Other observations

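The 9 AGAACA cytosines of the GR library at 50% or above whose TGTTCT cytosine was not listed had 4 to 9 reads each, with a median of 4. The AGAACA cytosines of the 5 hexamers had 5 to 76 reads, so the ranges overlapped. The 3 with the most reads, named after their values were seen, were nearest PCBP1, an RNA-binding protein (6 of 9 reads methylated), DQ595055 (7 of 7) and SENP7, a SUMO protease (5 of 7). Of the 9, 8 were outside repeats.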
